A study of Mus musculus with 12 samples.

Results

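Small nucleolar RNA (snoRNA) host genes were examined in mouse embryonic stem cells (ESCs) with lowered or raised YAP. The set held Gas5 and the 9 Snhg genes with the highest mean expected count, 10 genes of the 24480 in the files. Gas5 was taken by name, and 15 of the 16 Snhg entries reached the minimum mean of 10 expected counts. The last gene taken was Snhg7, with a mean of 694 expected counts over the 12 libraries, and the first left out was Snhg11, with 528. The Snhg genes were thus chosen by their mean expected count, and levels are given as a description without a test.

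YAP, the effector of Hippo signalling, activates transcription through the DNA-binding TEAD factors. To see how it affects transcription, undifferentiated E14Tg2a cells, a feeder-free ESC line, were transfected transiently in 2 experiments. For the knockdown, Stealth siRNAs targeting mYAP were used (YAP KD), with scrambled siRNAs as their control (CTR KD). For the overexpression, a plasmid with mouse YAP behind the CAG promoter was used (YAP OE), with a control plasmid beside it (CTR OE). The labels give GFP as the product of that control plasmid, whereas the study's text calls it an empty vector. Each group had 3 libraries of total RNA from independent experiments, and no control library was shared.

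A snoRNA host gene carries snoRNAs inside its introns. After splicing, the introns are trimmed to the mature snoRNAs, which guide 2′-O-methylation (C/D box class) or pseudouridylation (H/ACA box class) of ribosomal and spliceosomal RNA. The spliced exons of the Snhg genes and Gas5 encode no known conserved protein, and many of these RNAs are removed by nonsense-mediated decay when ribosomes start on their short reading frames. Transcripts of several host genes begin, like ribosomal protein mRNAs, with a cytosine and a run of pyrimidines, the 5′ terminal oligopyrimidine (TOP) tract that links translation to growth signals. Host RNA level therefore reflects transcription, splicing and decay together, and it is not a measure of the snoRNAs.

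The libraries held 4.29e+07 to 5.72e+07 expected counts (reads that RSEM assigned to genes). The 10 host genes together took between 349 and 471 CPM (counts relative to library size, scaled by TMM factors). For Yap1 the log2 fold change was -1.14 in YAP KD (SE 0.0568) and 0.97 in YAP OE (SE 0.0470), and both passed the edgeR quasi-likelihood test. The summed level of 8 ESC markers lay between 3849 and 4123 CPM in every library, with none at 0. The 5 trophoblast markers, 0 of them at 0 in any group, summed to 1.59 to 2.43 CPM in CTR KD, YAP KD and CTR OE and to 3.68 to 4.53 CPM in YAP OE. Sums for 5 primitive endoderm markers were 3.60 to 5.81 CPM, for 5 germ layer markers 18.1 to 21.8 CPM. The 5 fibroblast markers summed to 2.26 to 2.51 CPM in CTR KD and 3.00 to 3.56 CPM in YAP KD, and to 3.03 to 3.26 CPM in CTR OE and 3.33 to 3.68 CPM in YAP OE, higher with no overlap in both experiments. The part of these other cell types in the host gene values was not tested.

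The start sites of the host genes are shown because the rule did not use them and because the TOP tract belongs to the start. RefSeq (GRCm38.p6, the build mm10 of the files) gave 11 start windows for 9 of the 10 genes. Snhg4 had no entry. Each run below is 30 bases, 10 before the annotated start and 20 from it on, 5′ to 3′ on the strand of the gene, with the longest pyrimidine run in capitals.
Snhg1 (chr19:8723477-8723506, plus strand): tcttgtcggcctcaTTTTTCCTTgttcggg
Snhg12 (chr4:132308668-132308697, plus strand): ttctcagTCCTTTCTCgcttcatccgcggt
Snhg8 (chr3:123508317-123508346, minus strand): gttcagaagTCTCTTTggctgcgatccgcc
Snhg5 (chr9:88522878-88522907, minus strand): gcggtgaaccgggctcgTTCTTTTacgacg
Gas5, downstream start (chr1:161035156-161035185, plus strand): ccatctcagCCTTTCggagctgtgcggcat
Snhg7 (chr2:26640225-26640254, minus strand): gatgctcggCCTCTCggcagccatggcggc
Snhg17, downstream start (chr2:158361490-158361519, minus strand): aagaccacagTTTCCTgtcgcgtggatgtg
Snhg15 (chr11:6528741-6528770, minus strand): ctgtgaccgtaaCTTTaagcacacgtgagc
Snhg14 (chr7:60450158-60450187, minus strand): gagtgtgaTTagtcaagtcagtgcagcagg

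A run of at least 5 pyrimidines was present in 8 of the 11 windows, in 7 of the 9 genes, against 46.4% of all 32851 RefSeq start windows. The 2 windows of Snhg17 overlap and hold the same run, which was counted in both. That of its upstream start is not printed above. A run of at least 8 was present in 2 windows, those of Snhg1 and Snhg12, against 11.2% of all windows. A cytosine exactly at the annotated start followed by at least 4 pyrimidines was found in 3 windows, those of Gas5 (downstream start), Snhg7 and Snhg8, against 2.51% of all windows. Snhg14 had the lowest value, with a longest run of 2. The other windows without a run of 5 were that of Snhg15 (4) and that of the upstream start of Gas5 (3), which is not printed above. These counts describe the annotated starts, which may differ from the starts used in ESCs.

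TEAD motif letters (GGAATG, either strand) were searched from 250 bases before each start to 50 after it. They were present in 2 of the 9 genes, once in Snhg5 at -161 and at 2 places in Snhg8 at -162 and -90, counted from the start, against 14.7% of all windows of this length. The E-box letters CACGTG, which Myc and related factors bind, occurred in Snhg15 only, at +12, against 7.15% of all windows. The 300 bases of Snhg1 (chr19:8723237-8723536, plus strand) are printed since it is the gene whose level changed, with the same pyrimidine run in capitals, which begins at the fifth base of the annotated transcript and not at its start, and with no match to either motif:
Snhg1: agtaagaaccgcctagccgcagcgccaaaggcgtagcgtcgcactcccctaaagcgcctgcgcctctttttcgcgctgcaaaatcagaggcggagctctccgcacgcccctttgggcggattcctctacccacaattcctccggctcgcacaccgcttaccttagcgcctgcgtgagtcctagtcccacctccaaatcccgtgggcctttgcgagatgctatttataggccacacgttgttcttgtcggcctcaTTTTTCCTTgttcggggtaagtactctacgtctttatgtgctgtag

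Levels were compared between genes per kilobase of effective length, since the counted models ran from 476 bases (Snhg1) to about 3025 (Snhg17). On this scale Snhg1 was highest in every library, at 155 to 234 CPM per kilobase with a mean of 190.8. Snhg5 followed at 78.1 to 97.6, and its range touched no other gene's. Snhg15 (mean 53.6), Snhg12 (52.4), Snhg8 (47.4) and Gas5 (44.2) overlapped one another and could not be ordered beyond their spread. The next 3, Snhg7 (24.9), Snhg4 (24.3) and Snhg14 (19.4), also overlapped one another. Snhg17 was lowest at 8.03 to 9.89. In raw expected counts the order was different, with Gas5 first at a mean of 5175 and Snhg5 next at 3562.

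**Figure D1:**
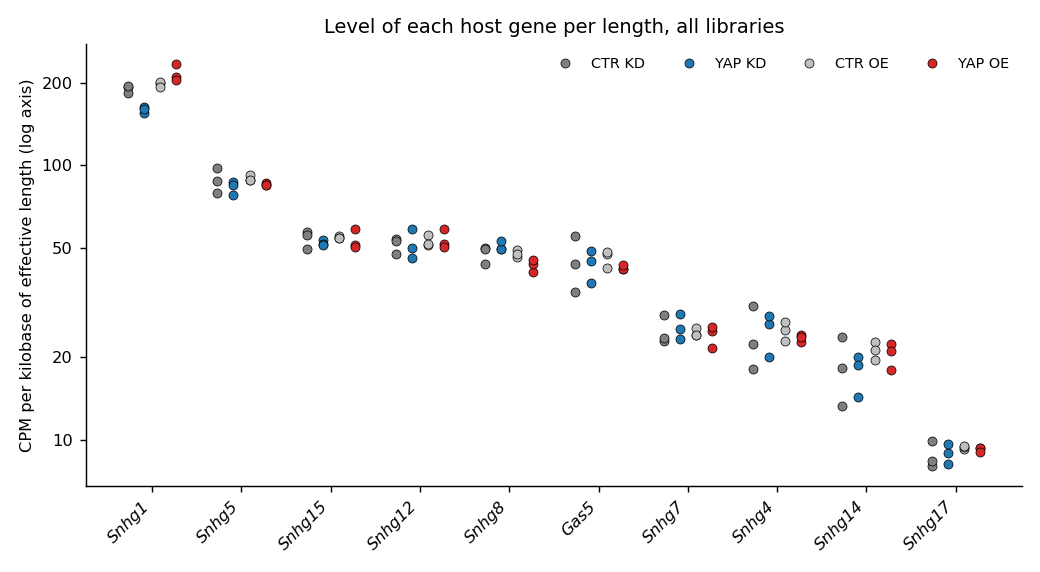
Level of the 10 host genes in CPM per kilobase of effective length (log axis), 1 point for each of the 12 libraries, coloured by group and ordered by mean. Snhg1 lies above all others at 155 to 234, Snhg5 lies apart below it, and Snhg17 is lowest at 8.03 to 9.89.

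The gene models set what these values count. Snhg1 (chr19:8723487-8726326) was counted on a spliced model of 476 bases in a gene of 2840 bases. Snhg8 (chr3:123507552-123508336) was counted on 785 bases, its whole span, which contains the entry of Snora24, and its expected counts were not whole numbers (within 0.001) in any of the 12 libraries, so its reads were shared with another entry. Gas5 (chr1:161034601-161038539) and Snhg14 (chr7:59272737-60450177) were counted on models of 2554 and 2193 bases that are not in the RefSeq table used here. Snhg14 spans 1177441 bases, so its counted model is a small piece of the locus. Among the members, only Snhg17 had 2 transcripts in its model.

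The first comparison asked whether lowering YAP changed the host genes. Snhg1, which carries the U22 snoRNA (Snord22) among other C/D box snoRNAs and is among the better studied Snhg transcripts, was reduced. Its level was 57.9, 54.6 and 59.1 CPM in CTR KD replicates 1 to 3 and 44.97, 48.0 and 49.0 in YAP KD. All 3 YAP KD libraries lay below all 3 CTR KD libraries. The mean went from 57.2 ± 2.31 to 47.3 ± 2.10 CPM (SD, n = 3), and the log2 fold change was -0.27 (SE 0.0491, 95% interval -0.38 to -0.16, edgeR quasi-likelihood adjusted p = 0.01250008). The level fell by 17.2%. In bulk RNA, fewer cells with the transcript and less of it per cell cannot be told apart. Snhg1 was the single member of the 10 that was called differentially expressed, beside 5.49% of the 14606 genes tested in either direction and 2.78% downward. It was also the single member whose groups did not overlap, which held downward for 12.7% of all genes and upward for 13.2%. The direction was kept whichever library was left out, but the call was lost without CTR KD replicate 3 (log2 fold change -0.25, adjusted p = 0.0705), without YAP KD replicate 1 (-0.24, adjusted p = 0.0587) and without YAP KD replicate 2 (-0.28, adjusted p = 0.0573).

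The other 9 members had log2 fold changes between -0.087 and 0.083 in YAP KD and were not called. Over all 10 members the median was -0.014 and 6 were below 0, beside a median of 0.0058 and 48.2% below 0 over all genes tested.

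Gas5, named for its rise in growth-arrested cells and known as a decoy for the glucocorticoid receptor, is a C/D box host. Its level was 132, 81.4 and 103 CPM in CTR KD and 88.1, 106 and 116 in YAP KD. The CTR KD libraries enclosed the YAP KD libraries. Its log2 fold change was -0.026 (SE 0.153, 95% interval -0.37 to 0.32), so changes in either direction within this interval could not be told from 0 here.

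Snhg5, host of the U50 C/D box snoRNAs, was at 81.5, 65.9 and 73.4 CPM in CTR KD and 64.2, 72.2 and 71.2 in YAP KD (log2 fold change -0.087, SE 0.0756). The groups overlapped. Snhg14 is the long antisense transcript of the imprinted Prader-Willi and Angelman region that carries the Snord115 and Snord116 clusters. It was at 47.8, 26.6 and 36.7 CPM in CTR KD and 28.5, 40.1 and 37.8 in YAP KD (log2 fold change -0.057, SE 0.186), and CTR KD again enclosed YAP KD.

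None of the hosts of mainly H/ACA box snoRNAs was called. Snhg4, host of Snora74a (U19), was at 29.9, 17.6 and 21.8 CPM in CTR KD and 19.3, 25.6 and 27.7 in YAP KD (log2 fold change 0.075, SE 0.179). Snhg8 had the highest log2 fold change of the members, 0.083 (SE 0.0643). Its libraries overlapped, at 30.4, 26.5 and 30.3 CPM in CTR KD and 29.7, 29.9 and 32.6 in YAP KD. For Snhg7, Snhg12, Snhg15 and Snhg17 the log2 fold changes were 0.050 (SE 0.106), -0.0022 (SE 0.0982), -0.072 (SE 0.0616) and 0.034 (SE 0.0889).

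**Figure D2:**
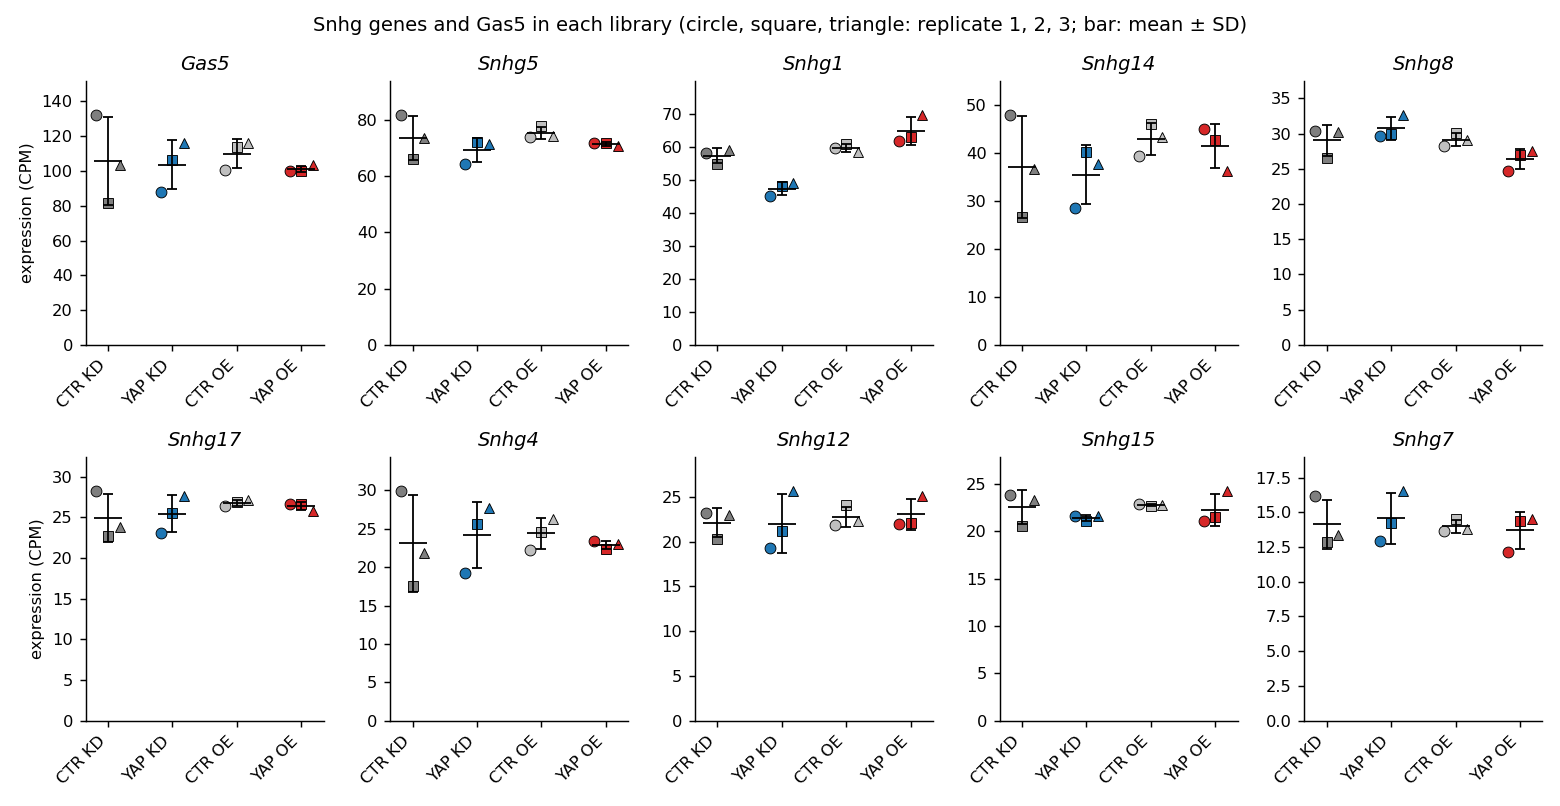
CPM of each host gene by group, 1 point per library (circle, square and triangle for replicates 1, 2 and 3), with the mean and SD of 3 libraries as bars and each axis starting at 0. Snhg1 falls from 57.2 to 47.3 CPM in the knockdown with no overlap, while CTR KD replicates of Gas5, Snhg14 and Snhg4 spread widely around similar means.

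The second comparison asked whether raising YAP changed them. No member passed the edgeR test (0 of 10, beside 2.13% of 14804 genes). DESeq2 and limma-voom called 0 as well, and 3 members (Snhg8, Snhg1 and Gas5) had an unadjusted edgeR p below 0.05. Snhg1 was at 59.6, 60.8 and 58.3 CPM in CTR OE and 61.7, 62.9 and 69.4 CPM in YAP OE. All 3 YAP OE libraries were above all CTR OE libraries, which held for 10.3% of all genes. The log2 fold change was 0.12 (SE 0.0462, 95% interval 0.020 to 0.22, edgeR adjusted p = 0.257). YAP OE replicate 3 stood highest, and without it the value was 0.059.

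Snhg8, whose reads were shared, was at 28.2, 30.1 and 29.1 CPM in CTR OE and 24.8, 26.9 and 27.5 CPM in YAP OE. Every YAP OE library was lower. The fitted log2 difference was -0.14 (SE 0.0501, edgeR adjusted p = 0.205). Gas5 was at 100.4, 113.5 and 115.8 CPM in CTR OE and 99.99, 100.01 and 103 CPM in YAP OE, which overlapped only through CTR OE replicate 1. Its log2 fold change was -0.12 (SE 0.0492, edgeR adjusted p = 0.286). Without CTR OE replicate 1 it was -0.18, with an adjusted p of 0.0708. Snhg5 was at 73.9, 77.6 and 74.0 CPM in CTR OE and 71.9, 71.6 and 70.5 CPM in YAP OE, without overlap (log2 fold change -0.076, SE 0.0375, edgeR adjusted p = 0.412). The 2 members that lay lower without overlap, Snhg5 and Snhg8, compare with 7.80% of all genes. The remaining 6 members had log2 fold changes between -0.088 (Snhg4) and 0.020 (Snhg12) with overlapping groups. In all, 8 of 10 members were below 0, beside 51.3% of all genes, and the median was -0.042 beside -0.0025.

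**Figure D3:**
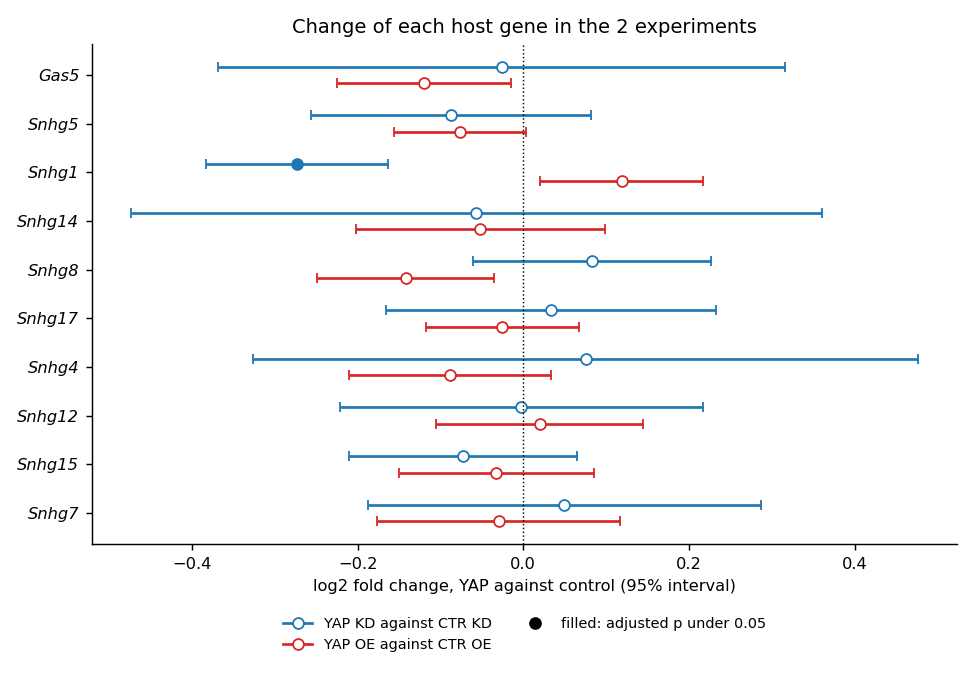
Log2 fold change of each host gene in the knockdown (blue) and in the overexpression (red), with 95% intervals from edgeR and filled points for an adjusted p under 0.05. Snhg1 at -0.27 in the knockdown is the single filled point, and it is also the single gene whose intervals for the 2 experiments lie on opposite sides of 0.

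The difference between the experiments was then tested in 1 fit over 12 libraries. Snhg1 differed by 0.39 on the log2 scale (change in YAP OE minus change in YAP KD, SE 0.0701, 95% interval 0.24 to 0.54, edgeR adjusted p = 0.002354101). It was called in each of the 12 fits that left out 1 library and in the 9 other alternatives, with values from 0.34 to 0.43. It was the single member called, beside 8.80% of 15049 genes in either direction and 5.24% upward. Snhg8 had a difference in the other direction that was not called (-0.22, SE 0.0840, edgeR adjusted p = 0.118). The differences of the other 8 members lay between -0.16 (Snhg4) and 0.041 (Snhg15). Between the controls themselves, CTR OE against CTR KD, no member was called (0 of 10, beside 1.33% of genes, and 0 with an unadjusted edgeR p below 0.05; DESeq2 and limma-voom also called 0), and the log2 fold changes were between -0.024 and 0.20. The control of the knockdown received siRNA and that of the overexpression a plasmid, so transfection type and experiment cannot be told apart in this comparison.

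The spread between replicates was wide for these genes in the knockdown experiment. The coefficient of variation (SD over mean) had a median of 11.2% over the members in CTR KD, from 4.03% for Snhg1 to 28.6% for Snhg14, beside 4.47% over 8510 genes with a mean of at least 10 CPM. In YAP KD it was 10.7% beside 3.46%. In the overexpression it was closer to the other genes, 3.34% beside 2.97% in CTR OE and 5.99% beside 3.93% in YAP OE.

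Between replicates of the knockdown experiment most members shifted the same way, with Snhg1 the least between CTR KD replicates 1 and 2. CTR KD replicate 1 was above replicate 2 in 10 of 10 members, against 47.4% of all genes, by 1.80-fold for Snhg14, 1.70-fold for Snhg4 and 1.62-fold for Gas5 but by 1.06-fold for Snhg1. CTR KD replicate 2 was also below replicate 3 in 10 of 10 members. In YAP KD, replicate 1 was below replicate 3 in 9 of 10 members. In the overexpression, CTR OE replicate 1 was above replicates 2 and 3 in 1 and 2 of 10 members, against 50.9% and 54.5% of all genes. Most members thus shifted the same way between these CTR OE libraries too. CTR OE replicate 2 was above replicate 3 in 6 of 10, and YAP OE replicate 1 above replicates 2 and 3 in 3 and 4 of 10. The members' median log2 difference was smaller there. Between replicates 1 and 2 it was -0.090 in CTR OE, beside 0.31 in CTR KD. Between replicates 1 and 3 it was -0.099 in YAP OE, beside -0.30 in YAP KD. In the knockdown, the direction of the members' median fold change depended on single libraries. Without CTR KD replicate 1 the members' median log2 fold change in YAP KD became 0.12, with 3 of 10 below 0, and without CTR KD replicate 2 it became -0.11, with 9 of 10 below 0. Leaving out YAP KD replicate 1 gave 0.078 and leaving out YAP KD replicate 3 gave -0.095. Snhg1 was -0.27 (edgeR adjusted p = 0.0310) without CTR KD replicate 1 and -0.31 (edgeR adjusted p = 0.002395171) without CTR KD replicate 2.

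**Figure D4:**
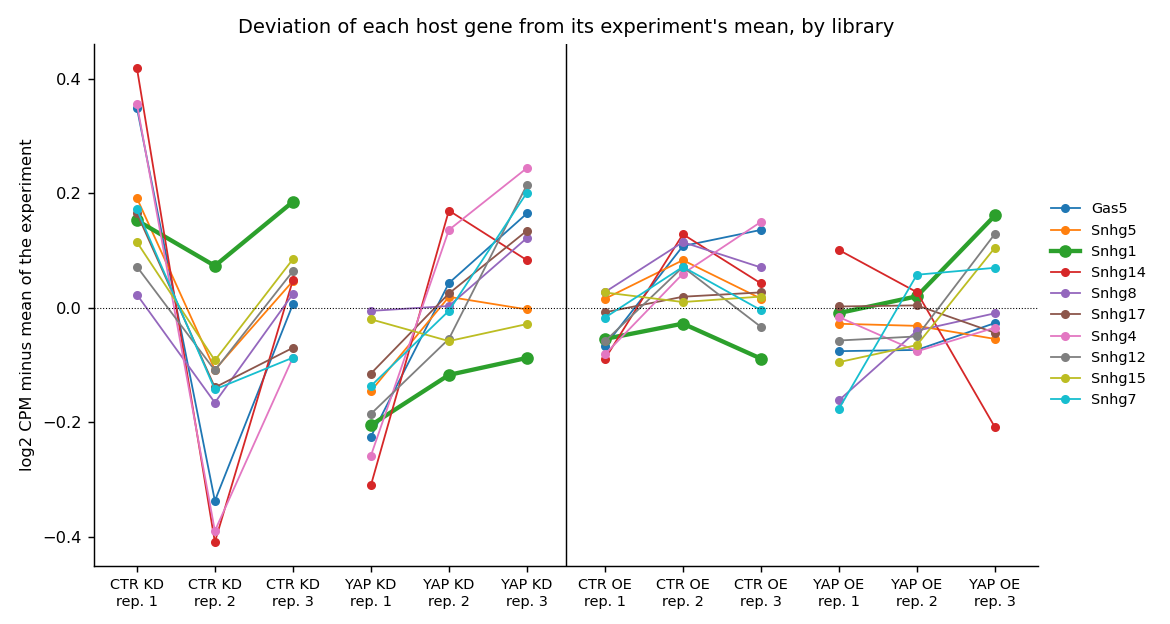
Log2 CPM of each host gene minus its mean over the 6 libraries of the same experiment, for all 12 libraries. Lines join the replicates of 1 gene and imply no order. CTR KD replicate 1 is high and CTR KD replicate 2 low for most genes, with Snhg1 (thick line) above 0 in all 3 CTR KD libraries and below 0 in all 3 YAP KD libraries.

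Other properties of those libraries varied as well. Entries for small RNAs took 11.8%, 12.7% and 12.1% of the counts in CTR KD replicates 1 to 3 and 12.9%, 11.7% and 11.003% in YAP KD, so that within each group the library with the lowest members' sum had the highest small RNA share. In CTR OE the order was different: replicate 1 had the lowest members' sum (409 CPM) and the lowest small RNA share (11.76%). In YAP OE it was reversed, with the lowest sum (408.6 CPM) and share (10.3%) in replicate 1 and the highest sum (419.7 CPM) and share (13.2%) in replicate 3. The median fragment, read from length minus effective length, was 174.7, 176.1 and 171.7 bases in CTR KD and 185.3, 181.4 and 169.2 in YAP KD. The part of either in the members' spread was not tested. With small RNA entries left out of the totals, Snhg1 in YAP KD was -0.28 (edgeR adjusted p = 0.0121), and with effective length as an offset it was -0.26 (edgeR adjusted p = 0.009833015).

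As a description over the 12 libraries, with each gene centred within its experiment, Gas5 and Snhg4 correlated with r = 0.968 and Snhg17 and Snhg4 with r = 0.951. Correlations of Snhg1 with the other 9 ran from -0.21 (Snhg8) to 0.54 (Snhg15). The points share library depth and preparation, so these values carry no test. The 5 genes most like the mean profile of the members, of 8500 candidates with a mean of at least 10 CPM, were Srsf5 (r = 0.966), Adarb2 (0.962), Eif4a2 (0.943), Malat1 (0.940) and Snrnp48 (0.939). Srsf5 encodes a splicing factor, Adarb2 a member of the adenosine deaminase family that acts on RNA, Eif4a2 a translation initiation helicase whose introns also carry snoRNAs, Malat1 a nuclear long noncoding RNA and Snrnp48 a protein of the minor spliceosome.

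The snoRNAs inside the members were read where the files hold them. The library method and the short length of these entries limit what their counts represent, and reads of a snoRNA entry can come from mature snoRNA or unspliced host. The reference table gives no strand for them. It placed 206 snoRNA entries within Snhg14, 8 each within Gas5 and Snhg1, 4 within Snhg12, 2 each within Snhg5, Snhg7 and Snhg17 and 1 each within Snhg4, Snhg8 and Snhg15. The files had 13 of these entries, and 8 had a mean of at least 10 expected counts. None of the 8 was called in either experiment.

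Snord22, inside the reduced Snhg1, was at 20.1 ± 1.95 CPM in CTR KD and 19.0 ± 2.79 in YAP KD (SD, n = 3), which gave -0.080 on the log2 scale (SE 0.105, edgeR adjusted p = 0.745). In the overexpression it was -0.049 (SE 0.142). The difference between host and snoRNA was not tested. Snora74a, inside Snhg4, was the most abundant of the 8 at 215 ± 16.3 CPM in CTR KD and 177 ± 26.9 in YAP KD (log2 fold change -0.28, SE 0.0975, edgeR adjusted p = 0.141). The values of Snora43, in Snhg7, were -0.20 in the knockdown (SE 0.0818) and -0.35 in the overexpression (SE 0.124), with edgeR adjusted p of 0.216 and 0.210. Its neighbour in the same host, Snora17, had -0.20 (SE 0.118) and -0.057 (SE 0.251). In Snhg12, Snora44 had -0.073 (SE 0.102) and -0.18 (SE 0.170), and Snora16a had 0.043 (SE 0.172) and 0.21 (SE 0.246). Snora24, in Snhg8, had 0.35 (SE 0.299) and -0.31 (SE 0.227), with reads shared in all 12 libraries, and Snord47, in Gas5, -0.15 (SE 0.297) and -0.22 (SE 0.438). All 3 entries within Snhg14 (Snord64, Snord116l1 and Snord116l2) were listed at 0.

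Coding genes that overlap members were looked at because no strand setting is stated, and reads from overlapping genes then cannot be told apart. Gas5 overlaps Zbtb37 by 264 bases, and Snhg14 overlaps Ube3a, Snrpn and Snurf. None of these 4 was called. Their log2 fold changes were between -0.28 (Snurf, SE 0.195) and 0.040 (Ube3a, SE 0.0691) in YAP KD and between -0.27 (Snurf, SE 0.176) and 0.065 (Ube3a, SE 0.0483) in YAP OE. For Snhg17, the abundance-weighted transcript length did not differ detectably, by 0.00050 on the log2 scale in YAP KD (limma adjusted p = 1) and -0.0025 in YAP OE (limma adjusted p = 0.9497).

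Related genes were read from lists, beside the 5.49% (YAP KD) and 2.13% (YAP OE) of all genes that were called. Of the 7 Snhg genes of lower expression 6 were tested, and none was called in either experiment. The same held for the 4 tested long noncoding hosts without an Snhg name. Of 30 tested protein-coding hosts, 0 rose and 1 fell in YAP KD: Hspa8, a constitutive heat shock cognate chaperone, at -0.18 (SE 0.0440, edgeR adjusted p = 0.0490). None changed in YAP OE. Their median log2 fold changes were -0.018 and -0.0019.

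The factors that assemble snoRNA particles and those that degrade host RNAs were read beside them. Of 20 snoRNP core and assembly genes, 0 were called in either experiment (medians 0.024 and -0.023). In the difference between experiments 3 of the 20 were called, all with a negative difference, beside 8.80% of all genes called in either direction and 3.56% with a negative one. They were Ruvbl1, an assembly helicase (-0.24, SE 0.0606), Nop10, an H/ACA core protein (-0.18, SE 0.0507), and Nolc1, a nucleolar chaperone of these particles (-0.18, SE 0.0527). Of 16 nonsense-mediated decay factors, 0 were called in either experiment (medians 0.011 and -0.0012).

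Ribosomal protein mRNAs carry the TOP tract in its classical form. The genes read here were taken by symbol, and their own starts were not examined. They include Rps19bp1, which is not a ribosomal protein gene, and entries of low level such as Rpl3l (mean 0.39 CPM) and Rpl32l (0.73 CPM). Of 89 tested, 2 rose and 1 fell in YAP KD and 1 rose in YAP OE. Rps16 fell by 0.43 on the log2 scale in YAP KD (SE 0.0688, edgeR adjusted p = 0.007468915). Rpl39l and Rpl22l1, paralogs of core ribosomal proteins, rose by 0.32 (SE 0.0530) and 0.25 (SE 0.0563) in YAP KD. Rpl39l also rose by 0.21 (SE 0.0509) in YAP OE. These counts of 3 and 1 out of 89 compare with 5.49% and 2.13% of all genes. In the difference between experiments 1 of the 89 was called, Rps16 at 0.44 (SE 0.107), beside 8.80%. The median over the 89 was 0.012 in YAP KD and -0.0091 in YAP OE.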

How the data were processed

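Total RNA of 4 groups with 3 libraries each was sequenced by the authors. They aligned the reads with STAR to mm10 and estimated abundance with RSEM on RefSeq genes. Versions and a strand setting are not given in the sources used here. The deposited values used are expected counts per gene, which are not normalized and need not be whole because RSEM divides reads between matching genes. The deposited length and effective length of each gene were used for levels per kilobase. Library totals were 4.29e+07 to 5.72e+07.

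Groups came from the labels. Expected counts were rounded to whole numbers, and YAP was compared with control separately for the 6 libraries of either experiment in edgeR 4.0.16, run under R 4.3.3 (filterByExpr, TMM, two-sided quasi-likelihood F test, Benjamini-Hochberg adjustment over all genes tested, threshold 0.05). The difference between experiments and the comparison of controls used 1 fit over 12 libraries. SE is the absolute log2 fold change divided by the square root of F. Transcript length was compared with limma 3.58.1 in genes whose length differed between libraries (5079 in the knockdown, 5105 in the overexpression). A minimum of 10 expected counts in every library was an alternative there. Log2 CPM used a prior count of 0.5. The code was tested on simulated data. The labels describe independent experiments, and replicates of every group differed by more than sampling noise.

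The members and gene lists were chosen with earlier results of these data known. All members are named, with nested snoRNA entries of at least 10 mean expected counts, at most 4 called genes per list and the 5 most alike genes. The 3 snoRNP genes named for the difference between experiments were chosen after their values were seen. The reference table has no strand for snoRNAs, so nesting was by position only. Alternatives were RLE factors, total counts, small RNA entries left out, 2 other filters, DESeq2 1.42.0, limma-voom, effective length as an offset, the replicate number as a block, 1 fit over 12 libraries and each library left out in turn. Starts and promoters are RefSeq sequences of GRCm38.p6.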

Additional observations from a re-analysis of the deposited data

Results flagged for a closer look

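The change of Snhg1 differed between the knockdown and the overexpression by the test of the difference itself, 0.39 on the log2 scale (edgeR adjusted p = 0.002354101). Its level was lower in 3 of 3 YAP KD libraries and higher in 3 of 3 YAP OE libraries than in all libraries of the matching control. Such a lack of overlap held for 12.7% of all genes downward in the knockdown and for 10.3% upward in the overexpression. The change in YAP OE alone was not called (log2 fold change 0.12, edgeR adjusted p = 0.257).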

How the results depend on the processing

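The 40 log2 fold changes of the 10 members (2 experiments, their difference and the comparison of controls) were recomputed to give 680 alternative values. Of these, 676 kept their side of the threshold, 4 lost a call and 0 called values changed sign. In 55 of them a value without a call changed sign, 50 of those when a library was left out. All 4 lost calls were those of Snhg1 in YAP KD: without CTR KD replicate 3, YAP KD replicate 1 or YAP KD replicate 2, where the count of called members ranged from 0 to 1 over the left-out libraries, and with the replicate number as a block. In that replicate block the Snhg1 value was -0.27 (edgeR adjusted p = 0.0692), 0 members were called and the count over all genes was 193 in place of 802. The block left 0 members called in YAP OE (280 genes in all) and 1 in the difference. Same-numbered libraries correlated at -0.42, -0.31 and 0.032 in the knockdown and 0.065, 0.089 and -0.030 in the overexpression, not every library correlated best with its own number, and the numbers were not taken as pairs. Each group had 3 libraries, and at the spread of Gas5, Snhg4 and Snhg14 in the knockdown (SE 0.153 to 0.186) changes as small as that of Snhg1 could not be detected.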
